A study of Homo sapiens with 6 samples.

Results

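RNA of an HCT116 line expressing a second hairpin against PEA15 was compared with RNA of an HCT116 line expressing a non-silencing hairpin. HCT116 is a human colorectal carcinoma cell line whose β-catenin gene carries an activating mutation. A short hairpin RNA (shRNA) is cut by the cell into a small RNA that lowers the messenger RNA it matches. The comparison took 4 of the 6 arrays of the series: the 2 arrays labelled PEA15 shRNA 2 and the 2 labelled NS shRNA, the non-silencing control. The other 2 arrays came from HCT116 cells with PEA15 shRNA 1, a different hairpin against the same gene, and are given beside part of the results. All 3 lines were grown in the same serum-containing medium with antibiotics, and the labels name no other treatment in any group. The assay was an Illumina expression array, whose short probes capture labelled copies of the RNA. Whether a line was a clone or a pool of cells, and how the hairpins were delivered, is not given in the labels. Probes entered the test if both arrays of a compared group, or of both groups, detected them (detection p under 0.05), which kept 19182 of 47323 probes (40.5%). These gave 11291 genes, each represented by its brightest kept probe, and 4205 probes without a single gene name.

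PEA15 is a small phosphoprotein with a death effector domain. It keeps the kinases ERK1 and ERK2 in the cytoplasm by binding them, and it also binds FADD, the adaptor of death receptors. Many of the genes described first belong to the integrated stress response. In this response, kinases that sense scarce amino acids, misfolded proteins in the endoplasmic reticulum, double-stranded RNA or lack of haem phosphorylate the translation factor eIF2, general protein synthesis falls, and translation of the transcription factor ATF4 increases. ATF4 then raises the messenger RNAs of amino acid transporters, amino acid synthesis enzymes, tRNA synthetases and further transcription factors.

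Levels are log2 values after background correction and quantile normalization, so a difference of 1 is a 2-fold difference. Between 19441 and 20351 probes were detected on an array, and the levels of 2 arrays of a group correlated with r of 0.994 to 0.995 over the kept probes. Of 8 epithelial markers, EPCAM, KRT8, KRT18, KRT19, CDH1, CLDN7 and CDX2 were detected on all 6 arrays, and VIL1 on none. The summed linear level of these 8 markers ran from 14600 to 15500 on the NS shRNA arrays and from 15800 to 16000 on the PEA15 shRNA 2 arrays. Of the defining markers of other cell types, PTPRC and CD3E of leukocytes and COL1A2, COL3A1 and LUM of fibroblasts were detected on no array. The same held for all 4 of endothelium. CD14, LYZ and COL1A1 were detected on all 6 arrays, and CD79A of leukocytes and DCN of fibroblasts on 2 each. The summed levels of the leukocyte, fibroblast and endothelial markers were 148 to 157, 133 to 144 and 83.3 to 88.9 with NS shRNA, and 147 to 149, 132 to 147 and 86.4 to 88.0 with PEA15 shRNA 2. The replicates are numbered in the labels, which do not call them separate cultures. A p-value here thus reflects the spread between these samples alone, and that spread may be technical. In bulk RNA, fewer cells with a transcript and less of it per cell cannot be told apart.

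PEA15, the gene that both hairpins target, fell with PEA15 shRNA 2. PEA15 stood at 8.97 and 9.15 with NS shRNA, at 7.71 and 7.93 with PEA15 shRNA 2 and at 8.22 and 8.17 with PEA15 shRNA 1. The change was -1.23 ± 0.12 on the log2 scale (± SE, 2 arrays in each group), a 2.35-fold difference (limma adjusted p = 0.00564). The change with PEA15 shRNA 1 was -0.86 and did not pass (adjusted p = 0.141), although its arrays lay below the control without overlap. The difference between the hairpin lines, -0.38, did not pass either (adjusted p = 0.125). With 1 array left out the change no longer passed in 3 cases: -1.33 when NS shRNA replicate 1 was left out (adjusted p = 0.0578), -1.14 for NS shRNA replicate 2 (0.0886) and -1.12 for PEA15 shRNA 2 replicate 1 (0.0708).

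Among genes, 133 rose and 63 fell with PEA15 shRNA 2 at an adjusted p under 0.05, which is 1.18% and 0.558% of the 11291 tested (limma with Benjamini-Hochberg adjustment over all kept probes). Among probes, 296 of 19182 changed (1.54%), with 215 higher (1.12%) and 81 lower (0.422%). Of the called genes, 29 were higher and 12 lower by 2-fold or more, and the median size of their log2 change was 0.77. The changes of all genes had a median of -0.015, and the 5th and 95th percentiles were -0.38 and 0.38. An unadjusted p under 0.05 was reached by 3511 probes (18.3%), and the arrays of both groups did not overlap for 50.6% of probes. With each array centred on its median in place of quantile normalization, 246 probes were higher and 46 lower. The count depends on both groups having 2 arrays: leaving out replicate 1 or 2 of NS shRNA gave 22 and 21 probes, and leaving out replicate 1 or 2 of PEA15 shRNA 2 gave 15 and 24.

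**Figure D1:**
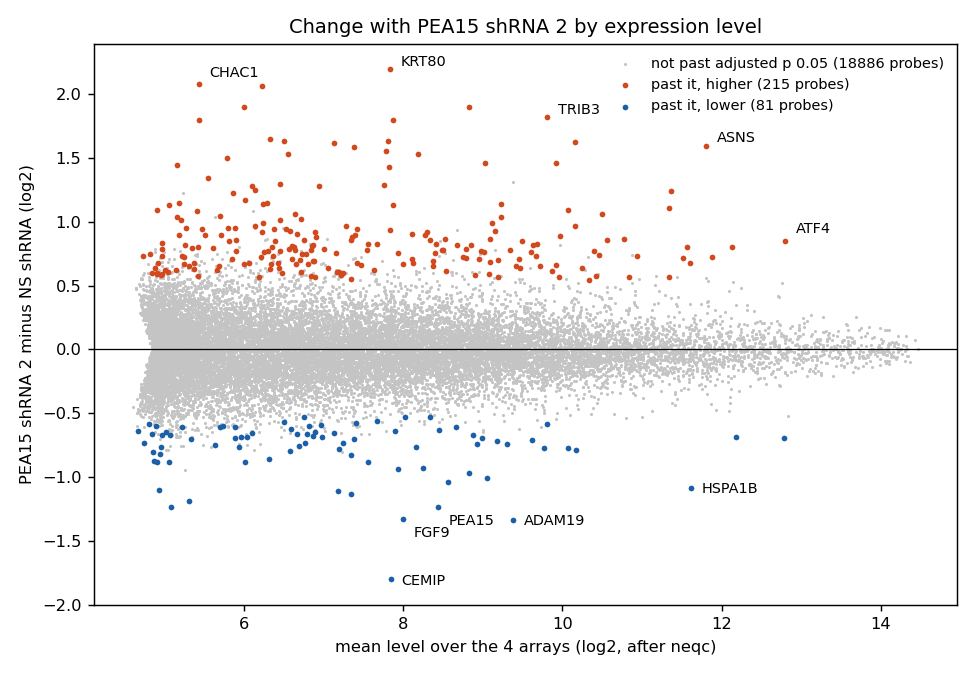
Each point is 1 of the 19182 kept probes. The x axis gives its mean log2 level over the 2 NS shRNA and 2 PEA15 shRNA 2 arrays, the y axis the log2 level with PEA15 shRNA 2 minus that with NS shRNA; the 215 probes called higher are red, the 81 called lower blue, and called probes lie at dim as well as bright levels.

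The named genes below follow a rule given under the processing. Under 16 alternative settings, including the removal of each array in turn, 13 of the 84 named genes that changed stayed past the threshold each time. The sizes depend on the background correction: with none, the median log2 size of the 84 changes was 0.70 in place of 0.91, and 33 of them were over 1.5 times smaller. The 13 genes past the threshold each time were KRT80, CHAC1, PCK2, TRIB3, ATF3, ALPK2, DDIT3, PSAT1, ASNS, ARL14EPL, CPA4, TSC22D3 and CEMIP. Under the 4 settings that leave out a control or PEA15 shRNA 2 array, the count of ATF4 effectors called higher was 4 each time, that of amino acid enzymes 3, that of keratins 1 and that of hyaluronan genes called lower 1. It was 0 each time for amino acid transporters, tRNA synthetases, sterol genes, fatty acid genes, Wnt genes, YAP targets, claudins, and the p53, glycolysis and ERK feedback lists described below.

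ATF4 and most of the tested stress effectors downstream of it rose. Of 22 such genes 18 were tested, and 12 rose, 0 fell and 6 did not pass, where 1.18% of all genes rose. The median change of the 18 was 0.87, against -0.015 for all genes. CHAC1, which breaks down glutathione, was not detected on either NS shRNA array (4.41 and 4.37) and stood at 6.45 and 6.48 with PEA15 shRNA 2, at least 3.13-fold higher (adjusted p = 0.000397). This bound, like those below, holds for background-corrected signal, and with no background correction the log2 difference of CHAC1 was 0.81. TRIB3, a pseudokinase that binds AKT and ATF4, stood at 8.89 and 8.90 on the control arrays and at 10.72 and 10.71 with PEA15 shRNA 2, a rise of 1.82 ± 0.10, or 3.53-fold (adjusted p = 0.000573). In both genes the 2 PEA15 shRNA 1 arrays lay with the control, at 4.37 and 4.34 for CHAC1 and at 8.92 and 8.85 for TRIB3.

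The transcription factors of the response were among the genes that rose. ATF3, a basic leucine zipper factor induced by many stresses, went from 7.01 and 6.94 to 8.79 and 8.77 (1.80 ± 0.10, 3.48-fold, adjusted p = 0.000573). DDIT3 encodes CHOP, a C/EBP family factor linked to cell death under lasting stress. It stood at 6.88 and 7.10 with NS shRNA and at 8.62 and 8.62 with PEA15 shRNA 2 (1.63 ± 0.12, 3.10-fold, adjusted p = 0.00191). ATF4 itself, whose activity is set mainly by translation, went from 12.38 and 12.37 to 13.24 and 13.22 (0.85 ± 0.10, 1.81-fold, adjusted p = 0.0106). With PEA15 shRNA 1 ATF3 stood at 7.24 and 7.30, above both control arrays, DDIT3 at 7.05 and 6.83 and ATF4 at 12.45 and 12.33. A second ATF4 probe rose by 1.14 ± 0.14 (adjusted p = 0.0113) and another did not pass (-0.08 ± 0.12, adjusted p = 0.779), so the probes of this gene disagree.

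Genes that act on growth signalling or leave the cell rose as well. DDIT4, which encodes the mTORC1 inhibitor REDD1, stood at 10.89 and 10.60 with NS shRNA and at 12.10 and 11.88 with PEA15 shRNA 2, 2.37-fold higher (adjusted p = 0.00766). SESN2, a leucine sensor that restrains mTORC1, was detected on 1 of the 2 NS shRNA arrays. Its level went from 4.98 and 4.77 to 6.21 and 6.23, a difference of 1.34 ± 0.13 (adjusted p = 0.00564). With PEA15 shRNA 1 SESN2 stood at 5.12 and 5.41, above both control arrays, and DDIT4 at 10.54 and 10.54, below both. GDF15, a secreted stress cytokine, went from 10.89 and 10.68 to 11.92 and 11.86 (2.16-fold, adjusted p = 0.0120). The remaining called members were VEGFA, PPP1R15A, STC2 and JDP2, with changes of 0.88, 0.58, 0.99 and 0.77 (adjusted p = 0.0190, 0.0418, 0.0200 and 0.0366). STC2, a secreted glycoprotein, and JDP2, a repressor of AP-1, were named after their values were seen.

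Promoter sequence is shown for 4 of the genes that rose, because members of this response are known to share a composite C/EBP and ATF site. The letters TGATGNAA were searched on both strands, from 250 bases before to 50 bases after each gene's start, in RefSeq promoter windows of GRCh38.p14. They occurred in 3.62% of 35116 windows and in 4.46% of 27305 genes. Of the genes of the 4 lists of effectors, transporters, enzymes and tRNA synthetases, 11 of the 26 that rose and had a window held them (42.3%), as did 8 of the 39 that did not pass (20.5%). TRIB3, DDIT3, PSAT1, PCK2 and SLC7A11 were not among the genes with a match. The 4 windows shown were taken from those that held a match, so they do not stand for all genes that rose. A match is a description of the letters and not of binding. The 250 bases before the start are given 5′ to 3′ on the strand of the gene, with the match in capitals. In ATF3 and ASNS the match reads along the gene, in CHAC1 and AARS1 on the opposite strand, and it begins 209, 191, 68 and 187 bases before the start of CHAC1, ATF3, ASNS and AARS1. The windows are chr15:40953221-40953470 on the plus strand for CHAC1, chr1:212565157-212565406 on the plus strand for ATF3, chr7:97872409-97872658 on the minus strand for ASNS and chr16:70289507-70289756 on the minus strand for AARS1.
CHAC1: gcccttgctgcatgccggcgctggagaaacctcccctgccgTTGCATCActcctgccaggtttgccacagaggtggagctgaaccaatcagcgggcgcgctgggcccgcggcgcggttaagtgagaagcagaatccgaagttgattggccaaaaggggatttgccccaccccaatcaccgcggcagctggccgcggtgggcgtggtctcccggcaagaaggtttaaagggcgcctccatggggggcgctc
ATF3: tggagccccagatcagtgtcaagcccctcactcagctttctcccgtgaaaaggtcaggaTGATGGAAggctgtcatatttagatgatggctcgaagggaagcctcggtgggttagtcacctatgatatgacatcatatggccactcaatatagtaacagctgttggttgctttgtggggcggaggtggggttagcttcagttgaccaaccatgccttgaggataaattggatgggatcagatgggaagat
ASNS: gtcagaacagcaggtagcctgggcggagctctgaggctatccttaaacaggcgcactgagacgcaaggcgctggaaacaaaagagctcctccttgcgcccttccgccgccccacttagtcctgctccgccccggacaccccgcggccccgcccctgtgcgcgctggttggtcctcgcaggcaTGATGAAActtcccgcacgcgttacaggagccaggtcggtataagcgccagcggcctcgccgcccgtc
AARS1: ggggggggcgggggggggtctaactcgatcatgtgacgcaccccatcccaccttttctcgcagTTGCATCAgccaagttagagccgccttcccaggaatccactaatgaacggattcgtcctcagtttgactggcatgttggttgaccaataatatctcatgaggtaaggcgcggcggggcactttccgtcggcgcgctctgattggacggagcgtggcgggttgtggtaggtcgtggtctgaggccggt

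Transporters that bring amino acids into the cell rose in part. Of 29 listed 21 were tested, and 7 rose, 0 fell and 14 did not pass, with a median change of 0.38, or 0.17 with no background correction. SLC7A11, the light chain of the cystine and glutamate exchanger, stood at 5.05 and 5.01 with NS shRNA and at 6.48 and 6.58 with PEA15 shRNA 2, 2.83-fold higher (adjusted p = 0.00611). SLC3A2, the heavy chain that carries SLC7A11 and SLC7A5 to the membrane, went from 9.55 and 9.50 to 10.65 and 10.59 (2.14-fold, adjusted p = 0.00419). SLC7A5, which imports leucine and other large neutral amino acids, went from 11.66 and 11.80 to 12.57 and 12.49 (1.74-fold, adjusted p = 0.0156). Both chains of these exchangers were thus higher on each PEA15 shRNA 2 array than on each control array, an order that 23.4% of all genes showed. SLC6A9, a glycine transporter, rose by 1.30 ± 0.14 and SLC7A1, which imports arginine and lysine, by 0.97 ± 0.10 (adjusted p = 0.00834 and 0.00570). SLC38A1 and SLC1A5, both carriers of glutamine, rose by 0.78 ± 0.12 and 0.71 ± 0.12 (adjusted p = 0.0271 and 0.0322).

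Enzymes that make serine, asparagine, proline and one-carbon units included some of the largest changes. Of 34 listed 23 were tested, and 5 rose, 0 fell and 18 did not pass, with a median change of 0.31, or 0.16 with no background correction. PSAT1, which performs the transamination step of serine synthesis, stood at 9.36 and 9.34 with NS shRNA and at 10.92 and 11.02 with PEA15 shRNA 2, a rise of 1.62 ± 0.10, or 3.08-fold (adjusted p = 0.000789). ASNS, which makes asparagine, went from 10.96 and 11.06 to 12.60 and 12.62 (1.59 ± 0.10, 3.02-fold, adjusted p = 0.00101). PCK2, the mitochondrial phosphoenolpyruvate carboxykinase, went from 7.98 and 7.77 to 9.87 and 9.67 (1.90 ± 0.13, 3.73-fold, adjusted p = 0.00141). A second PCK2 probe rose by 1.90 ± 0.18 (limma adjusted p = 0.00503), and another, dimmer one differed by 0.50 ± 0.21 without passing (adjusted p = 0.254). On the PEA15 shRNA 1 arrays these genes stood at 9.46 and 9.38 (PSAT1), 10.79 and 10.66 (ASNS) and 7.75 and 7.51 (PCK2), well below the PEA15 shRNA 2 arrays. MTHFD2, an enzyme of the mitochondrial folate cycle, rose by 0.86 ± 0.12, and CTH, which makes cysteine from cystathionine, by 0.59 ± 0.10 (adjusted p = 0.0176 and 0.0403).

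The cytosolic tRNA synthetases, which charge tRNAs with their amino acids, rose in part, by less than 2-fold. Of 20 listed 18 were tested, and 5 rose, 0 fell and 13 did not pass, with a median change of 0.37. GARS1 went from 11.17 and 11.17 to 12.001 and 11.95 (1.75-fold, adjusted p = 0.0115) and AARS1 from 11.32 and 11.21 to 11.91 and 11.97 (1.60-fold, adjusted p = 0.0268). YARS1, MARS1 and SARS1 rose by 0.73, 0.62 and 0.59 (adjusted p = 0.0194, 0.0292 and 0.0360). GARS1 and the other 4 named synthetases charge glycine, alanine, tyrosine, methionine and serine tRNAs. Of 17 mitochondrial tRNA synthetases, a separate set of genes, 15 were tested and 0 passed in limma, also at an unadjusted p under 0.05 (0 of 15). Their changes ran from -0.25 to 0.21 with a median of -0.09, and 2 of the 15 had both PEA15 shRNA 2 arrays above both control arrays, beside 23.4% of all genes, and 6 had both below, beside 28.5%. The smallest adjusted p-values were those of PARS2 (0.21, adjusted p = 0.332) and MARS2 (-0.20, adjusted p = 0.348).

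**Figure D2:**
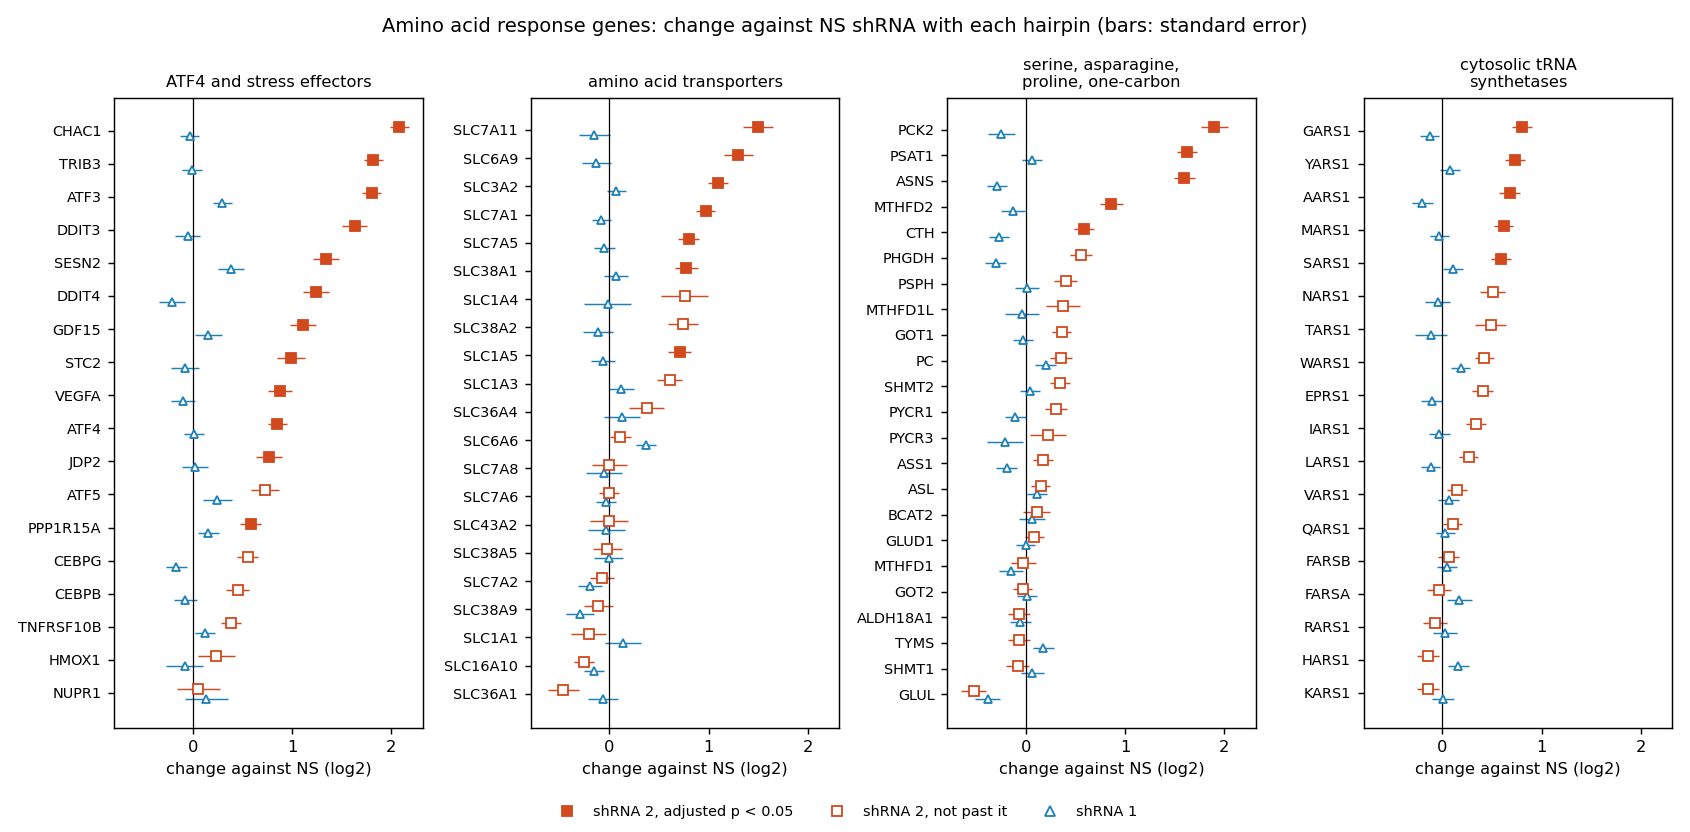
Log2 change against NS shRNA (x axis) of each tested gene of the 4 lists, ordered by the change with PEA15 shRNA 2. Squares are PEA15 shRNA 2 (filled past adjusted p 0.05), triangles PEA15 shRNA 1, bars the standard error. With shRNA 2 12, 7, 5 and 5 genes of the lists rose. The median shRNA 1 change of the lists together was -0.03, with single genes off 0 in either direction, such as SESN2 (0.38) and ASNS (-0.29). Both changes share the same NS shRNA arrays.

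Taken as 1 set of 80 tested genes, these 4 lists held 29 that rose and 0 that fell, with a median change of 0.40 and 62 genes above 0, where 46.9% of all genes were above 0. They held 21.8% of all genes called higher. The median change of the same 80 genes with PEA15 shRNA 1 was -0.03. Tested directly between the hairpins, 32 of the 80 were higher with PEA15 shRNA 2 than with PEA15 shRNA 1 and 0 lower, beside 1.92% of all genes called higher in that comparison. The lists were drawn up with earlier results of these data known, so their counts are no independent evidence of the direction.

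The kinases and phosphatases that set eIF2 phosphorylation gave a single call. Of 17 genes tested, PPP1R15A was the 1 that rose; it encodes GADD34, which directs a phosphatase to eIF2. Its level went from 8.55 and 8.67 to 9.24 and 9.15 (1.50-fold, adjusted p = 0.0418), a call that was lost when any 1 of the 6 arrays was left out (adjusted p = 0.0678 to 0.203). The changes of the 17 had a median of 0.07 and a range of -0.25 to 0.58. EIF2S2, the β subunit of eIF2, differed by 0.34 (adjusted p = 0.167).

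Chaperones and folding enzymes of the endoplasmic reticulum gave no call. Of 26 listed 22 were tested and 0 passed in limma (5 at an unadjusted p under 0.05, 1 higher and 4 lower), with a median change of -0.08 and a range of -0.34 to 0.46. XBP1, the transcription factor of the unfolded protein response that the IRE1 nuclease activates by splicing, stood at 9.93 and 9.97 with NS shRNA and at 10.32 and 10.50 with PEA15 shRNA 2 (0.46 ± 0.11, adjusted p = 0.0848). A second XBP1 probe passed (0.64 ± 0.10, adjusted p = 0.0312). SDF2L1, a luminal chaperone partner, had a change of -0.34 (adjusted p = 0.167).

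Among 21 tested chaperones of the cytosol and mitochondria 1 was called lower and 0 higher in limma (8 at an unadjusted p under 0.05, 0 higher and 8 lower). HSPA1B, the stress-inducible HSP70, stood at 12.21 and 12.11 with NS shRNA, at 11.02 and 11.13 with PEA15 shRNA 2 and at 11.87 and 11.88 with PEA15 shRNA 1. It fell by 1.08 ± 0.10 (2.12-fold, adjusted p = 0.00503), and a probe for it can also capture the near-identical HSPA1A. DNAJB1, a cochaperone of HSP70, had a change of -0.60 that did not pass (adjusted p = 0.0551). The median of the 21 was -0.07.

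KRT80, a type II epithelial keratin, had the largest rise among genes detected in both groups. It stood at 6.68 and 6.78 with NS shRNA, at 6.97 and 6.84 with PEA15 shRNA 1 and at 8.94 and 8.91 with PEA15 shRNA 2. The rise was 2.19 ± 0.10, or 4.57-fold (adjusted p = 0.000397), and the groups did not overlap, as the rule for the leading genes requires. A dimmer second KRT80 probe, detected on 1 NS shRNA array, differed by 0.79 ± 0.18 without passing (adjusted p = 0.0824). The other 9 keratins tested did not pass, with changes of 0.52 (KRT15), 0.49 (KRT23), 0.35 (KRT8), 0.20 (KRT19), 0.05 (KRT18), -0.02 (KRT10), -0.12 (KRT13) and -0.12 (KRT20). The ninth, KRT7, was not detected with NS shRNA and differed at least 1.05-fold. The median of the 10 keratins was 0.28, and 0.13 with KRT7 at its bound.

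Several other genes with large rises encode enzymes and secreted or surface proteins. ALPK2, an atypical protein kinase, was not detected with NS shRNA (4.53 and 4.55) and stood at 6.27 and 6.40 with PEA15 shRNA 2, at least 2.85-fold higher (adjusted p = 0.000710), with a log2 difference of 0.67 when no background was corrected. HKDC1, a hexokinase family member, went from 5.38 and 5.63 to 7.26 and 7.05 (3.14-fold, adjusted p = 0.00651). SLC2A3, the glucose transporter GLUT3, went from 6.97 and 7.27 to 8.28 and 8.54 (2.45-fold, adjusted p = 0.0106). In all of these both PEA15 shRNA 2 arrays lay above both control arrays, as the rule for the leading genes requires. Of all genes 23.4% did so. TNFSF18, the ligand of the T cell receptor GITR, went from 5.64 and 5.74 to 7.31 and 7.34 (3.11-fold, adjusted p = 0.00452). TSC22D3, a leucine zipper protein known as a glucocorticoid target, went from 7.11 and 7.10 to 8.54 and 8.52 (2.69-fold, adjusted p = 0.00101), with PEA15 shRNA 1 at the control level (7.07 and 7.11). CPA4, a secreted carboxypeptidase, rose 2.88-fold, ARL14EPL 3.01-fold and LIPG, a secreted lipase, 2.38-fold (adjusted p = 0.00101, 0.00178 and 0.00591). With PEA15 shRNA 1 HKDC1, SLC2A3, CPA4, ARL14EPL and LIPG also lay above both control arrays, by 0.38, 0.35, 0.33, 0.45 and 0.25 on average. TNFSF18 differed by -0.25 there, and none of these changes passed against NS shRNA. ALPK2 stood at 4.78 and 4.91 with PEA15 shRNA 1 and was detected on 1 of those arrays.

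**Figure D3:**
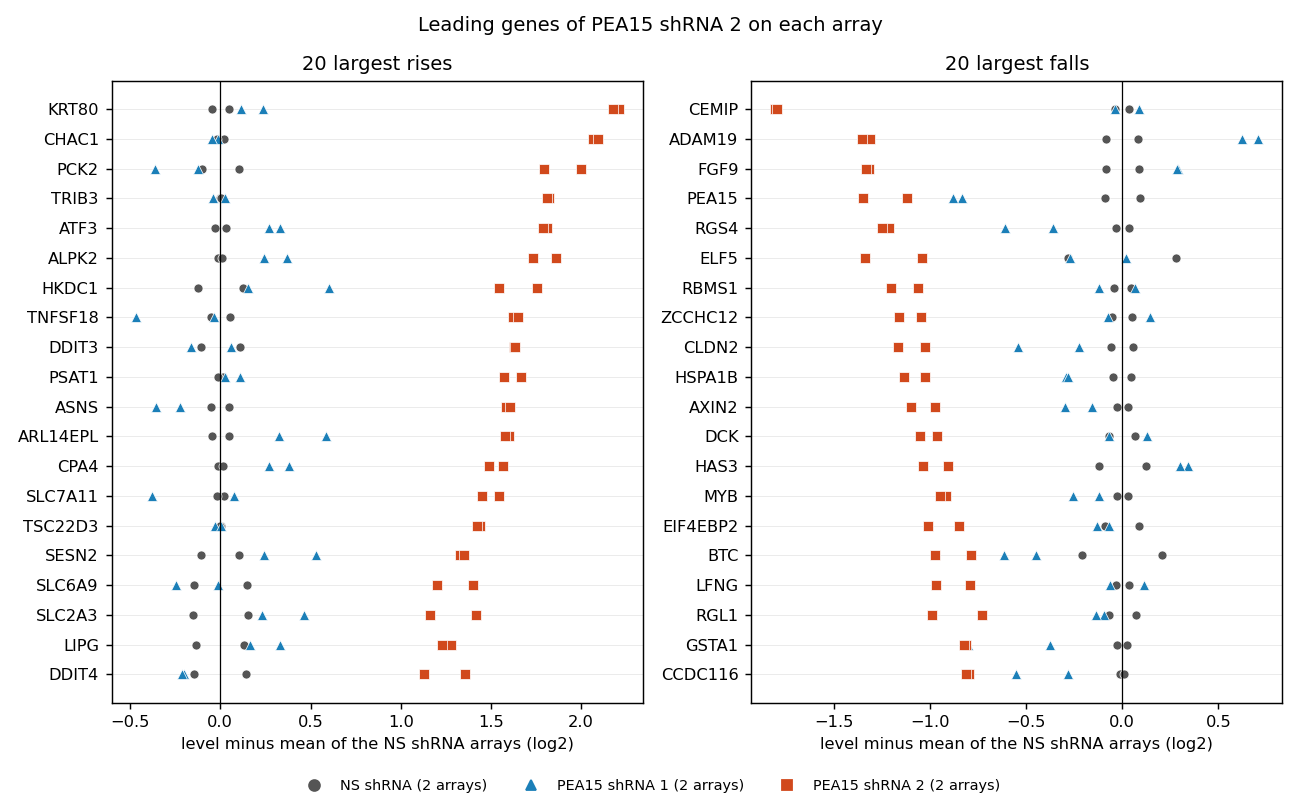
Level on each of the 6 arrays minus the mean of the 2 NS shRNA arrays (x axis, log2) for the 20 largest rises and the 20 largest falls with PEA15 shRNA 2. Circles are NS shRNA, triangles PEA15 shRNA 1 and squares PEA15 shRNA 2. The squares stand apart from the circles in every row, as the rule for these genes requires. Of the 40 genes 36 also differed from PEA15 shRNA 1, in a test that shares the PEA15 shRNA 2 arrays.

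CEMIP, which binds hyaluronan and is needed for its breakdown, had the largest fall among genes detected in both groups. Its level was 8.70 and 8.78 with NS shRNA, 8.70 and 8.83 with PEA15 shRNA 1 and 6.94 and 6.94 with PEA15 shRNA 2. It fell by 1.80 ± 0.10, a 3.48-fold difference (adjusted p = 0.000635). HAS3, a hyaluronan synthase, went from 9.19 and 9.44 to 8.28 and 8.41 (1.96-fold lower, adjusted p = 0.0123), while it stood at 9.66 and 9.62 with PEA15 shRNA 1. A gene that makes this matrix sugar and a gene needed to break it down thus both fell. The other 5 tested genes of hyaluronan turnover did not pass: the hyaluronidases HYAL2 (-0.27) and HYAL3 (0.28), CEMIP2 (-0.31), and the receptors CD44 (-0.15) and HMMR (-0.04).

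The other leading falls included several secreted and membrane proteins. ADAM19, a membrane metalloproteinase, stood at 10.13 and 9.97 with NS shRNA, at 8.74 and 8.70 with PEA15 shRNA 2 and at 10.76 and 10.67 with PEA15 shRNA 1. The fall of 2.52-fold passed (adjusted p = 0.00249), and the shRNA 1 arrays lay above the control. FGF9, a fibroblast growth factor, went from 8.57 and 8.74 to 7.34 and 7.33 (2.51-fold lower, adjusted p = 0.00236), and a second, dimmer FGF9 probe differed by -0.14 without passing. RGS4, which shuts off G protein signalling, was not detected with PEA15 shRNA 2 (4.49 and 4.45) against 5.74 and 5.67 with NS shRNA, at least 1.83-fold lower (adjusted p = 0.00503), with a log2 difference of -0.42 when no background was corrected. Likewise CLDN2, a claudin that forms cation pores in tight junctions, stood at 5.41 and 5.53 with NS shRNA and was not detected with PEA15 shRNA 2 (4.31 and 4.44), at least 1.56-fold lower (adjusted p = 0.0120). ELF5, an epithelial ETS factor, stood at 5.62 and 6.18 with NS shRNA and was not detected with PEA15 shRNA 2 (4.86 and 4.56), at least 2.10-fold lower (adjusted p = 0.0366). Such bounds set the group with signal against the lowest signal that counts as detected. Without background correction CLDN2 and ELF5 differed by -0.40 and -0.42, and the 3 genes named next by -0.27 to -0.29 (BTC -0.29, GSTA1 -0.27, CCDC116 -0.27). BTC, an EGF family ligand, was at least 1.58-fold lower, GSTA1, a glutathione transferase, at least 1.43-fold and CCDC116 at least 1.34-fold (adjusted p = 0.0418, 0.0411 and 0.0235). With PEA15 shRNA 1 RGS4 (5.34 and 5.09), CLDN2 (4.93 and 5.25), BTC (5.05 and 4.88), GSTA1 (4.55 and 4.97) and CCDC116 (4.97 and 4.70) also lay below both control arrays. FGF9 (8.95 and 8.94) lay above them and ELF5 (5.92 and 5.63) between them. None of these shRNA 1 changes passed against NS shRNA.

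The remaining leading falls included regulators of transcription, RNA and translation. RBMS1, an RNA-binding protein, went from 7.86 and 7.95 to 6.71 and 6.85 (2.19-fold lower, adjusted p = 0.00609), but its other 2 kept probes differed by -0.26 and -0.05 without passing. MYB, a transcription factor of stem and progenitor cells, went from 8.37 and 8.43 to 7.48 and 7.45 (1.91-fold lower, adjusted p = 0.00804). EIF4EBP2, which blocks cap-dependent translation when mTORC1 is inactive, fell by 0.93 ± 0.11 (adjusted p = 0.0123). DCK, which phosphorylates deoxycytidine and activates nucleoside drugs, went from 9.63 and 9.49 to 8.51 and 8.59 (2.01-fold lower, adjusted p = 0.00958). ZCCHC12, LFNG, a glycosyltransferase that modifies Notch, and RGL1, an exchange factor for Ral, fell by 1.11, 0.88 and 0.86 (adjusted p = 0.00744, 0.0159 and 0.0200).

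Genes of sterol synthesis rose in part. Of 26 genes listed under cholesterol synthesis and uptake, INSIG1 and LPIN1 among them, 20 were tested. In this list 5 rose and 0 fell, with a median change of 0.35 and 19 of 20 changes above 0. CYP51A1, the lanosterol demethylase, went from 5.90 and 5.89 to 6.76 and 6.93 (1.93-fold, adjusted p = 0.0130). HMGCS1, which makes HMG-CoA at the entry of the pathway, went from 8.97 and 9.15 to 10.00 and 9.83 (1.81-fold, adjusted p = 0.0179). INSIG1, which retains the SREBP activating complex in the endoplasmic reticulum and is itself an SREBP target, rose by 0.66, LSS, the lanosterol synthase, by 0.65 and LPIN1, a phosphatidate phosphatase, by 0.69 (adjusted p = 0.0291, 0.0292 and 0.0394). Of the regulators themselves, SREBF1 rose from 8.75 and 8.74 to 9.37 and 9.50 (1.61-fold, adjusted p = 0.0291). SREBF2 was detected on 1 of the 2 NS shRNA arrays and differed by 0.30 without passing (adjusted p = 0.192). For HMGCS1, INSIG1 and LSS the level with PEA15 shRNA 2 was also above that with PEA15 shRNA 1 (adjusted p = 0.00755, 0.00982 and 0.0251), while for CYP51A1 that difference did not pass (adjusted p = 0.0716). With no detection filter 1 of the 5 called genes of this list passed, and with the replicate number as a block 2.

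In fatty acid synthesis SREBF1 was the 1 gene of 12 tested that rose. The median change was 0.29, and 11 of the 12 changes were above 0. Those that did not pass were 0.45 for ACSS2, 0.44 for MID1IP1, 0.42 for SCD, 0.36 for FADS1, 0.35 for ACACA, 0.22 for ELOVL6, 0.20 for ME1, 0.19 for FASN, 0.13 for ACLY, 0.06 for ELOVL1 and -0.07 for ELOVL5.

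Some feedback genes of the Wnt pathway fell. Of 23 such genes 18 were tested, and 3 fell and 0 rose, where 0.558% of all genes fell, with a median change of -0.19. AXIN2, a scaffold of the complex that degrades β-catenin and a direct target of β-catenin, stood at 9.11 and 9.05 with NS shRNA, at 8.11 and 7.98 with PEA15 shRNA 2 and at 8.79 and 8.92 with PEA15 shRNA 1. It fell by 1.04 ± 0.11 (2.05-fold, adjusted p = 0.00663) and was also lower than with PEA15 shRNA 1 (adjusted p = 0.0118). NOTUM, which inactivates secreted Wnt proteins, went from 6.27 and 6.37 to 5.64 and 5.47, and SOX4, a progenitor transcription factor, from 10.44 and 10.70 to 9.73 and 9.84 (adjusted p = 0.0403 and 0.0270). With PEA15 shRNA 1 NOTUM stood at 6.56 and 6.25, and SOX4 at 10.18 and 10.12, below both control arrays. The difference between the hairpin lines passed for NOTUM and not for SOX4 (limma adjusted p = 0.0200 and 0.129). MYC, also a β-catenin target, did not pass. It stood at 11.75 and 11.77 with NS shRNA and at 12.03 and 12.11 with PEA15 shRNA 2 (0.31 ± 0.10, adjusted p = 0.157). With no detection filter 1 of the 3 falls passed.

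Target genes of YAP and TEAD, the effectors of the Hippo pathway, rose in part. Of 23 listed 19 were tested, and 4 rose and 0 fell, with a median change of 0.41, or 0.17 with no background correction. CCN1 and CCN2, secreted matrix proteins, went from 6.42 and 6.49 to 7.25 and 7.21 and from 6.34 and 6.35 to 6.93 and 7.26 (adjusted p = 0.0200 and 0.0463). A second CCN2 probe differed by 0.26 without passing (adjusted p = 0.543). With PEA15 shRNA 1 CCN1 stood at 6.67 and 6.87 and CCN2 at 6.70 and 6.92, above the control arrays. The difference between the hairpin lines did not pass for either gene (limma adjusted p = 0.0666 and 0.275). AXL, a receptor tyrosine kinase, went from 7.96 and 8.23 to 8.96 and 8.96 (1.82-fold, adjusted p = 0.0178). It stood at 8.41 and 8.36 with PEA15 shRNA 1, lower than with PEA15 shRNA 2 (limma adjusted p = 0.0473). NT5E, which makes adenosine outside the cell, stood at 6.87 and 6.85 with NS shRNA, at 7.50 and 7.44 with PEA15 shRNA 2 and at 8.03 and 7.96 with PEA15 shRNA 1. It rose by 0.61 ± 0.10 (adjusted p = 0.0306) and differed from PEA15 shRNA 1 by -0.53 (adjusted p = 0.0357), so the control lay lowest and PEA15 shRNA 1 highest. With no detection filter 0 of the 4 passed.

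Among 19 tested genes of the urokinase system, metalloproteinases and matrix 3 rose and 1 fell, with a median of 0.06. PLAU, the urokinase, went from 9.004 and 8.90 to 9.86 and 9.60, THBS1, a matrix glycoprotein, from 6.27 and 6.37 to 7.37 and 6.99 and LAMB3, a laminin chain, from 6.41 and 6.67 to 7.25 and 7.21 (adjusted p = 0.0292, 0.0317 and 0.0403). With PEA15 shRNA 1 PLAU stood at 9.11 and 9.27, THBS1 at 6.48 and 6.59 and LAMB3 at 6.62 and 6.76. The hairpin lines did not differ past the threshold in these genes (limma adjusted p = 0.0613, 0.0548 and 0.0586). The 1 that fell was ADAM19. All 3 rises were lost with no detection filter and under the fit with the replicate number as a block.

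PEA15 binds ERK, and the genes that report ERK activity were examined for that reason. Of 21 tested feedback regulators and ETS outputs 2 rose and 0 fell, with a median change of 0.01. DUSP5, a nuclear phosphatase of ERK, went from 10.18 and 10.09 to 10.96 and 11.03 (1.81-fold, adjusted p = 0.0117), and EPHA2, an ephrin receptor, from 8.06 and 7.92 to 8.81 and 8.83 (1.78-fold, adjusted p = 0.0156). With PEA15 shRNA 1 DUSP5 stood at 10.24 and 10.14, lower than with PEA15 shRNA 2 (limma adjusted p = 0.0103). EPHA2 stood at 8.485 and 8.35 with PEA15 shRNA 1, and its difference between the hairpin lines did not pass (limma adjusted p = 0.0827). The other 19 genes did not pass against NS shRNA. Of 13 tested binding partners of PEA15 and their effectors, PEA15 itself was the 1 that changed. RPS6KA1, which encodes the ERK-activated kinase RSK1, differed by -0.31 (adjusted p = 0.323). Among 11 AP-1 subunits 0 passed, and 4 had an unadjusted p under 0.05 (3 higher, 1 lower). MAFF, a small MAF factor, differed by 1.09 ± 0.28 with a wide spread on the control arrays (5.92 and 5.21 against 6.54 and 6.77, adjusted p = 0.105), and JUND by 0.46 (adjusted p = 0.0870). JUN, FOS and FOSL1 differed by 0.12, -0.14 and 0.09, and the other members, JUNB, FOSB, FOSL2, BATF3, ATF2 and MAFG, by 0.09, 0.41, 0.30, -0.33, -0.14 and -0.01.

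Of the growth factor families, BTC was the 1 of 10 tested EGF ligands and receptors that changed. The ligands TGFA, EREG, HBEGF and NRG4 differed by 0.19, 0.15, 0.31 and -0.31 (NRG4 was detected on 1 PEA15 shRNA 2 array), the receptors EGFR, ERBB2 and ERBB3 by -0.19, 0.03 and 0.05, and the inhibitors ERRFI1 and LRIG1 by 0.35 and -0.01. In the FGF family of 10 tested genes FGF9 fell and FGFBP1, a carrier that releases FGFs from the matrix, rose from 7.42 and 7.32 to 8.32 and 8.28 (1.91-fold, adjusted p = 0.00804). The receptors FGFR3, FGFR4 and FGFRL1 differed by -0.36, -0.13 and -0.07, and FGF2, FGF18, FGF19, KLB and FRS3 by -0.03, 0.09, -0.13, -0.07 and 0.17, none past the threshold.

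The title of the series names the DNA damage checkpoint, and its genes and those of the cell cycle were examined for that reason. Of 46 tested genes of G1/S and DNA replication 0 passed in limma (9 at an unadjusted p under 0.05, 1 higher and 8 lower), with a median change of -0.09, and 22 of the 46 had both PEA15 shRNA 2 arrays below both control arrays, beside 28.5% of all genes. CDC25A, the phosphatase that activates CDK2, stood at 8.83 and 8.86 with NS shRNA and at 8.32 and 8.34 with PEA15 shRNA 2 (-0.52 ± 0.10, adjusted p = 0.0548). A dimmer CDC25A probe passed (-0.68 ± 0.11, adjusted p = 0.0347). FEN1, a flap endonuclease of replication, differed by -0.39 (adjusted p = 0.108). Of 46 tested genes of G2/M and mitosis 0 passed (8 at an unadjusted p under 0.05, 3 higher and 5 lower), and their median of -0.05 turned positive, to 0.02, with each array centred on its median. FOXM1, the transcription factor of the mitotic programme, differed by -0.47 and CDC20, an activator of the anaphase-promoting complex, by -0.33 (adjusted p = 0.0877 and 0.141). Of 25 cyclins, CDKs and inhibitors 0 passed (7 at an unadjusted p under 0.05, 3 higher and 4 lower). CDK6 stood at 9.51 and 9.68 with NS shRNA and at 9.98 and 9.98 with PEA15 shRNA 2 (0.39 ± 0.10, adjusted p = 0.114), and CDK7 differed by 0.40 (adjusted p = 0.0994).

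Of 37 tested genes of the DNA damage checkpoint and repair 36 did not pass, and the median change of the list was -0.08. LIG4, the ligase of end joining, differed by -0.38 (adjusted p = 0.152). Of 31 tested p53 target genes 3 rose: SESN2 and GDF15, which are also on the ATF4 list, and EPHA2. The median of the p53 list was 0.21. CDKN1A, which encodes the CDK inhibitor p21, differed by 0.20 and MDM2, the ubiquitin ligase of p53, by 0.02 (adjusted p = 0.421 and 0.932). Both were named after their values were seen.

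In the list of glycolysis, glucose transport and hypoxia genes 4 of 35 tested rose, HKDC1 and SLC2A3 among them, with a median of 0.07. VEGFA, the vascular growth factor, went from 6.81 and 7.03 to 7.90 and 7.70 (1.84-fold, adjusted p = 0.0190), and ALDOC, an aldolase, rose by 0.54 (adjusted p = 0.0493). Of 26 tested NRF2 targets and genes of glutathione and thioredoxin 3 rose, CHAC1, SLC7A11 and TXNRD1. TXNRD1, a thioredoxin reductase, went from 10.00 and 10.02 to 10.86 and 10.70 (1.71-fold, adjusted p = 0.0176). CHAC1 and SLC7A11 are also on the amino acid response lists.

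Among 30 tested mTORC1 regulators the inhibitors SESN2 and DDIT4 rose and DDIT4L, a relative of DDIT4, fell. DDIT4L stood at 10.51 and 10.39 with NS shRNA, at 9.75 and 9.62 with PEA15 shRNA 2 and at 9.61 and 9.72 with PEA15 shRNA 1. It fell by 0.77 ± 0.11 (adjusted p = 0.0200), and the 2 hairpin lines differed by 0.02 ± 0.11, with a 95% interval of -0.24 to 0.27. Of 33 tested genes of autophagy and the lysosome ATG12, the ubiquitin-like protein joined to ATG5, was the 1 that rose, from 9.88 and 10.05 to 11.03 and 11.02 (2.08-fold, adjusted p = 0.00592). A second ATG12 probe rose by 1.01 ± 0.12 (adjusted p = 0.0113). NPC1, a lysosomal cholesterol exporter, differed by 0.33 (adjusted p = 0.160).

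Genes of cell death and immunity gave few calls. Of 21 tested BCL2 family members and caspases BID, which links caspase-8 to mitochondria, fell by 0.53 ± 0.10 (adjusted p = 0.0458), a call lost when any 1 array was left out (adjusted p = 0.0709 to 0.197). BCL2L1 differed by 0.46 (adjusted p = 0.0950). Among 19 tested TNF ligands and receptors TNFSF18 rose and EDAR, the ectodysplasin receptor, fell. EDAR was not detected with PEA15 shRNA 2 (4.77 and 4.71, against 5.35 and 5.47 with NS shRNA), at least 1.49-fold lower (adjusted p = 0.0287; without background correction -0.21 on the log2 scale, adjusted p = 0.0913), and stood at 4.73 and 4.61 with PEA15 shRNA 1. Of 35 tested interferon response genes IFI27 was the 1 called higher, from 6.86 and 6.98 to 7.89 and 7.67 (adjusted p = 0.0166). IFI6 differed by 0.52 without passing (adjusted p = 0.0614). At an unadjusted p under 0.05 in limma there were 11 of the 35, 11 higher and 0 lower. The median change of the list was 0.15, or 0.095 with no background correction, and 29 of the 35 changes were above 0, beside 46.9% of all genes.

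Of the 11 tested genes of HLA and antigen presentation 0 passed, also at an unadjusted p under 0.05 (0 of 11), and their changes ran from -0.19 to 0.20. They were HLA-B (-0.10), HLA-C (0.12), HLA-E (-0.11), HLA-F (-0.14), HLA-G (-0.10), B2M (-0.10), the peptide transporter subunits TAP1 (0.12) and TAP2 (0.07), TAPBP (0.20), and the immunoproteasome subunits PSMB9 (-0.19) and PSMB10 (-0.15). Of 16 tested NF-kB subunits and targets 0 passed, and 5 had an unadjusted p under 0.05 (4 higher, 1 lower). LCN2, a secreted siderophore-binding protein, differed by 0.54 and NFKB2 by 0.50 (adjusted p = 0.0730 and 0.0740).

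Epithelial junctions and transcription factors gave 2 calls each. CLDN2 and CEACAM1, an adhesion molecule, were the 2 of 20 tested junction genes that fell. CEACAM1 went from 7.19 and 7.07 to 6.30 and 6.49 (adjusted p = 0.0276), while it stood at 7.21 and 7.30 with PEA15 shRNA 1. Among 14 tested epithelial and intestinal transcription factors KLF4, a factor of differentiating epithelium, rose from 5.37 and 5.47 to 6.43 and 6.76 (2.25-fold, adjusted p = 0.0144) and ELF5 fell. A second KLF4 probe rose by 0.71 ± 0.11 (adjusted p = 0.0271). The main KLF4 probe stood at 5.80 and 6.08 with PEA15 shRNA 1, and its difference between the hairpin lines did not pass (limma adjusted p = 0.059).

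Because a hairpin uses the cell's small RNA machinery, its genes were examined too. Of 15 tested 0 passed (2 at an unadjusted p under 0.05, both lower), with a median of -0.06. AGO1, an Argonaute protein, differed by -0.65 ± 0.18 with PEA15 shRNA 2 arrays far apart (7.17 and 6.60) and TNRC6A, an Argonaute partner, by -0.41 (adjusted p = 0.123 and 0.144). Of 56 clustered histone genes 19 were tested and 0 passed (7 at an unadjusted p under 0.05, 6 higher and 1 lower), with H2AC6 at 0.53 and H2BC5 at 0.30 (adjusted p = 0.0952 and 0.174).

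**Figure D4:**
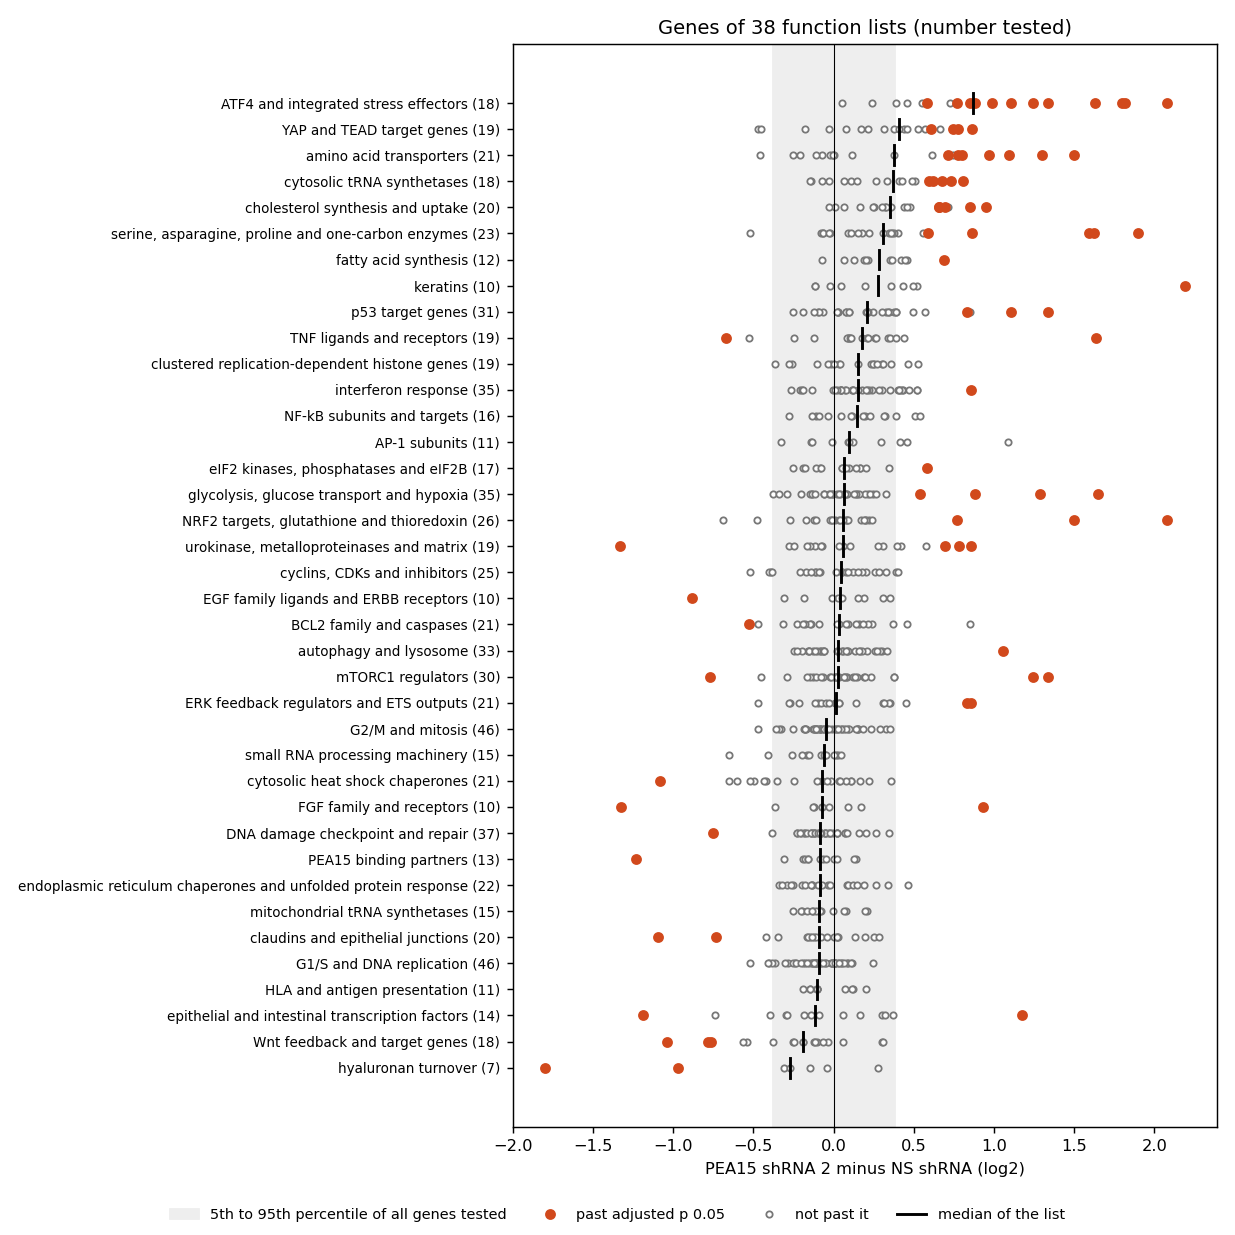
Log2 change with PEA15 shRNA 2 against NS shRNA (x axis) of every tested gene of 38 function lists, ordered by the list's median (black line), with the number tested in brackets. Filled points passed adjusted p 0.05 and the grey band spans the 5th to 95th percentile of all genes (-0.38 to 0.38); called rises are most frequent in the ATF4 list, at 12 of 18.

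The hairpins were compared with each other because both target PEA15. Between PEA15 shRNA 2 and PEA15 shRNA 1, 620 of 19182 probes differed (3.23%), 374 higher and 246 lower with shRNA 2, and among genes 390 differed (3.45%), 217 of them higher (1.92%) and 173 lower (1.53%). PEA15 shRNA 1 against NS shRNA, which shares the control arrays, gave 3 called probes (0.0156%). The 40 leading genes of PEA15 shRNA 2 were chosen on arrays that enter both tests. All 20 that rose and 16 of the 20 that fell also differed from PEA15 shRNA 1. The 4 falls that did not were PEA15 (-0.38, 95% interval -0.66 to -0.10) and BTC, GSTA1 and CCDC116, which were not detected with PEA15 shRNA 2 (adjusted p = 0.241, 0.392 and 0.114). For KRT80 the difference between hairpins was 2.02 ± 0.10 (adjusted p = 0.000483), for TRIB3 1.82 ± 0.10 (adjusted p = 0.000483) and for CEMIP -1.82 ± 0.10 (adjusted p = 0.000483). The hairpin lines thus differed in these genes, while the difference in PEA15 between them did not pass the test. With a single array left out, the probes that differed between hairpins numbered 225 and 223 for replicates 1 and 2 of NS shRNA, 63 and 113 for those of PEA15 shRNA 1, and 37 and 34 for those of PEA15 shRNA 2.

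Some transcripts crossed the detection limit. On both PEA15 shRNA 2 arrays and neither NS shRNA array 317 probes were detected, of which 22 were called higher, and 354 probes were detected on both NS shRNA arrays and neither PEA15 shRNA 2 array, of which 17 were called lower. Among the called genes, the brightest kept probe was detected on both PEA15 shRNA 2 arrays only for 7, CHAC1 and ALPK2 among them, and on both NS shRNA arrays only for 12, among them RGS4, ELF5 and CLDN2. Further probes gave a check within the arrays: 55 called genes had 65 other kept probes, of which 58 moved in the direction of the gene's main probe and 22 passed in that direction, with 0 past the threshold in the opposite one. Other probes that did not pass included those of LIPG (0.47), CTH (0.32), SREBF1 (0.49), LSS (0.28), CEACAM1 (-0.46) and BID (-0.39). Of the called probes 56 had no listed gene, 48 higher and 8 lower.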

How the data were processed

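Total RNA of 6 HCT116 samples was measured on Illumina expression arrays. The authors deposited a linear signal intensity and a detection p-value for each probe on each array, not normalized, and a table of log2 values normalized with lumi, per the submitters' processing notes; the sources used here do not give its background step. From the deposited intensities, log2 levels were computed with limma 3.58.1 in R 4.3.3 (normexp background correction from the detection p-values, offset 16, quantile normalization), since the control probes' own rows were not used here. All 6 arrays shared 1 linear model with a mean per group and an empirical Bayes spread. P-values were adjusted by Benjamini-Hochberg over all 19182 kept probes, with a threshold of 0.05. Probes were named through the platform annotation, and the brightest kept probe stood for its gene. Where neither array of a group detected a gene, its difference is a bound: the other group's mean over the higher of the array's lowest detected signal and its own signal.

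Named genes were PEA15, the 20 largest rises and 20 largest falls whose arrays did not overlap the control, up to 8 called members of each list with the smallest adjusted p (and others up to 2 where fewer passed), and well-known regulators and members of small families. The members and lists were chosen with earlier results of these data known. Replicate numbers in the labels were checked for pairing and were not used as a block in the reported results. Alternatives varied the background correction, offset, normalization, filter, row unit, arrays, spread prior and replicate block, used the submitters' values, and left out each array. A call of the DNA damage list is not reported here. The fit was tested on simulated data.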

Additional observations from a re-analysis of the deposited data

Results flagged for a closer look

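The lines with PEA15 shRNA 2 and PEA15 shRNA 1 carry hairpins against the same gene, and 620 probes differed between them in their own test (3.23% of 19182). Of the 40 genes with the largest changes for PEA15 shRNA 2 against NS shRNA, 36 differed between the 2 hairpin lines in the direction of that change. PEA15 itself was among the 4 that did not pass. The 40 were chosen on the PEA15 shRNA 2 arrays, which enter both tests, so the 36 are not independent of the choice.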

How the results depend on the processing

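The counts of probes past the threshold moved with the processing. Against NS shRNA, quantile normalization with no background correction gave 1095 (611 higher, 484 lower), the submitters' processed values 1087 (611 and 476), an offset of 50 gave 914 (536 and 378), a spread prior with an intensity trend 1000 (562 and 438), the stricter detection filter 542 (347 and 195), and no detection filter 108 (84 and 24), where more probes were tested. Median centring gave 246 higher and 46 lower. Only the 4 arrays of the compared groups gave 210, and 1 probe per gene 333. Against PEA15 shRNA 1 the same settings gave 1996 (1040 and 956), 2035 (1064 and 971), 1746 (915 and 831), 1923 (1013 and 910), 967 (561 and 406) and 264 (169 and 95), median centring 312 higher and 117 lower, and 1 probe per gene 568. Leaving out each array gave 15 to 218 probes against NS shRNA (14 to 158 higher, 1 to 60 lower) and 34 to 225 against PEA15 shRNA 1 (27 to 151 higher, 6 to 74 lower). These fits have fewer samples, and a lone array is assumed to vary like the other groups. PEA15 stayed lower throughout, by -1.34 to -1.12 with an array left out, and passed in 13 of 16 alternatives. A replicate block (the replicate number as a term) gave counts of 172 (129 higher, 43 lower) against NS shRNA and 436 (275 and 161) against PEA15 shRNA 1, and 61 of the 84 named genes that had changed still passed. The numbers are not shown to pair the samples, since the replicate differences of different groups correlated at only -0.0154, 0.0511 and 0.0857. No result changed direction under any of the 16 alternatives among PEA15 and the 84 named genes. With an array left out, 13 to 70 of those 84 still passed. For the other moved counts the cause was not tested. Precision is limited by 2 arrays a group, and a transcript near background has only a bound on its change.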

Other observations

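Genes outside the lists described above passed the test too, and those named here were named after their values were seen. GLIS3, a Krüppel-like zinc finger factor, went from 5.68 and 5.65 with NS shRNA to 6.74 and 6.86 with PEA15 shRNA 2 (2.20-fold, adjusted p = 0.00503). INHBE, an inhibin β chain of the TGF-β family, was not detected on either NS shRNA array (4.57 and 4.64) and stood at 5.86 and 5.65 with PEA15 shRNA 2, at least 1.90-fold higher (adjusted p = 0.00564). ULBP1, a surface ligand of the natural killer cell receptor NKG2D, went from 6.98 and 6.62 to 7.67 and 7.86 (1.96-fold, adjusted p = 0.0231) and stood at 6.26 and 6.28 with PEA15 shRNA 1, which placed the control between the hairpin lines. Further rises were those of ARTN, a ligand of the RET receptor complex (0.97), GCNT3, a mucin glycosyltransferase (0.92), CYP24A1, which inactivates vitamin D (0.86), PDGFB, a growth factor of stromal cells (0.71), and SMAD3, a transducer of TGF-β (0.72). Among the falls were CD24, a surface glycoprotein, from 9.18 and 9.24 to 8.51 and 8.59 (adjusted p = 0.0252), CBX2, a Polycomb protein (-0.71), ETS2, an ETS transcription factor (-0.64), and EIF5, which acts on eIF2 in translation initiation (-0.69). DKK4, a secreted Wnt inhibitor, was not detected with PEA15 shRNA 2 (4.35 and 4.42, against 5.17 and 5.06 with NS shRNA), at least 1.22-fold lower (adjusted p = 0.0249).

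Of the 196 called genes many did not differ between the hairpin lines past the threshold. Those given here are examples, named after their values were seen. UCA1 changed by 0.65 with PEA15 shRNA 2 and 0.70 with PEA15 shRNA 1, DCLK1 by 0.85 and 0.65, and ZNF704 by -0.53 and -0.59. Between the hairpin lines these genes had limma adjusted p = 0.845, 0.324 and 0.761. SCARNA8, a small Cajal body RNA that guides modification of spliceosomal RNA, stood at 5.90 and 5.58 with NS shRNA, at 6.91 and 7.004 with PEA15 shRNA 1 and at 6.70 and 6.77 with PEA15 shRNA 2. It rose by 0.99 ± 0.13 with PEA15 shRNA 2 (adjusted p = 0.0156), and the difference of -0.23 between the hairpin lines did not pass (95% interval -0.52 to 0.07). SCARNA18, of the same class, was detected on 1 NS shRNA array and stood at 4.97 and 4.76 with NS shRNA, at 6.11 and 6.24 with PEA15 shRNA 1 and at 5.97 and 5.94 with PEA15 shRNA 2, a change of 1.08 ± 0.11 (adjusted p = 0.00744). TNFRSF6B, which encodes the soluble decoy receptor DcR3, stood at 6.38 and 6.56 with NS shRNA, at 7.31 and 7.25 with PEA15 shRNA 1 and at 7.53 and 7.17 with PEA15 shRNA 2 (0.88 ± 0.14, adjusted p = 0.0291).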
